A study of Arvicanthis niloticus with 59 samples.

Results

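The clustered histone genes encode the linker histone H1 and the core histones H2A, H2B, H3 and H4, around which DNA is wound in the nucleus. They were taken as every row of the Nile grass rat expression table whose symbol begins with Hist1h, Hist2h, Hist3h or Hist4h, which gave 28 of 18970 genes. These 28 comprised 5 H1, 8 H2A, 12 H2B, 2 H3 and 1 H4 gene. The symbols are those of the mouse, since each row was named by its match to 1 mouse transcript, and the roles given here are known from the mouse and from human cells. Histone genes of 1 family are near-identical in sequence, so reads can be divided among them arbitrarily, and the value of any single member is uncertain for that reason.

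Replication-dependent histone genes are transcribed while a cell copies its DNA in S phase. Their mRNA ends in a stem-loop, bound by the stem-loop binding protein Slbp, and carries no poly(A) tail, unlike nearly all other mRNA. Several clustered genes are also known to give a polyadenylated transcript in cells that have stopped dividing, and most replacement histones encoded outside the clusters give polyadenylated mRNA. The libraries described here were selected for poly(A) tails, so they report only that share of histone mRNA which has a tail or was carried along.

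The series holds 59 RNA-seq libraries from healthy, untreated Nile grass rats (Arvicanthis niloticus, a day-active rodent), covering 48 sites of 22 organs. They came from 4 animals: 1 library from T424 (the testis), 8 from T426, 12 from T173F and 38 from T3F; the labels used here give no age or strain. For description the sites were placed in 6 classes by what is generally known of cell division in them: blood-forming and lymphoid (femur, bone marrow, spleen and thymus, 5 libraries), intestine (7), testis (1), ovary (2), other (24), and resting, meaning brain, spinal cord, retina, optic nerve, sciatic nerve, heart and skeletal muscle (20). Tests could be made at the 10 sites sampled from 2 animals, with femur and duodenum as dividing tissue and hippocampus, retina, skeletal muscle and sciatic nerve as resting tissue.

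Library totals ran from 678819 expected counts in the testis to 41309569, with a median of 16406604; the T426 libraries held 1691561 to 3827321. Several libraries went against their labels. The library labelled liver T3F held 23826 TPM of the lung surfactant gene Sftpc, that labelled lung T3F held 71562 TPM of albumin (Alb), and renal pelvis T426 held 10235 TPM of Alb. The 11 germ cell genes examined summed to 141148 TPM in testis, but also to 120753 TPM in retina T426, 45057 TPM in hippocampus T426, 22486 TPM in femur T426 and 1966 TPM in sciatic nerve T426, against 0.893 to 454 TPM in the other 54 libraries. Pancreas T173F had 1573234 counts. The summed levels, the correlations over sites, the tests between sites and the testis comparison are also given without them. In bulk tissue, fewer cells of a type and less RNA per cell cannot be told apart.

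Clustered histone RNA was a minor part of every library. The 28 genes took 248528 of 8.79e+08 counts, or 0.0283%, and 8 of them held 90.4% of that amount. By family, H2B took 35.7%, H1 32.7%, H3 15.1%, H4 9.79% and H2A 6.74% of the histone counts. Of 1652 pairs of a gene and a library, 1139 had any count and 807 had 10 or more. At the low end, 9 genes had fewer than 200 counts each over all libraries, 486 in sum.

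**Figure D1:**
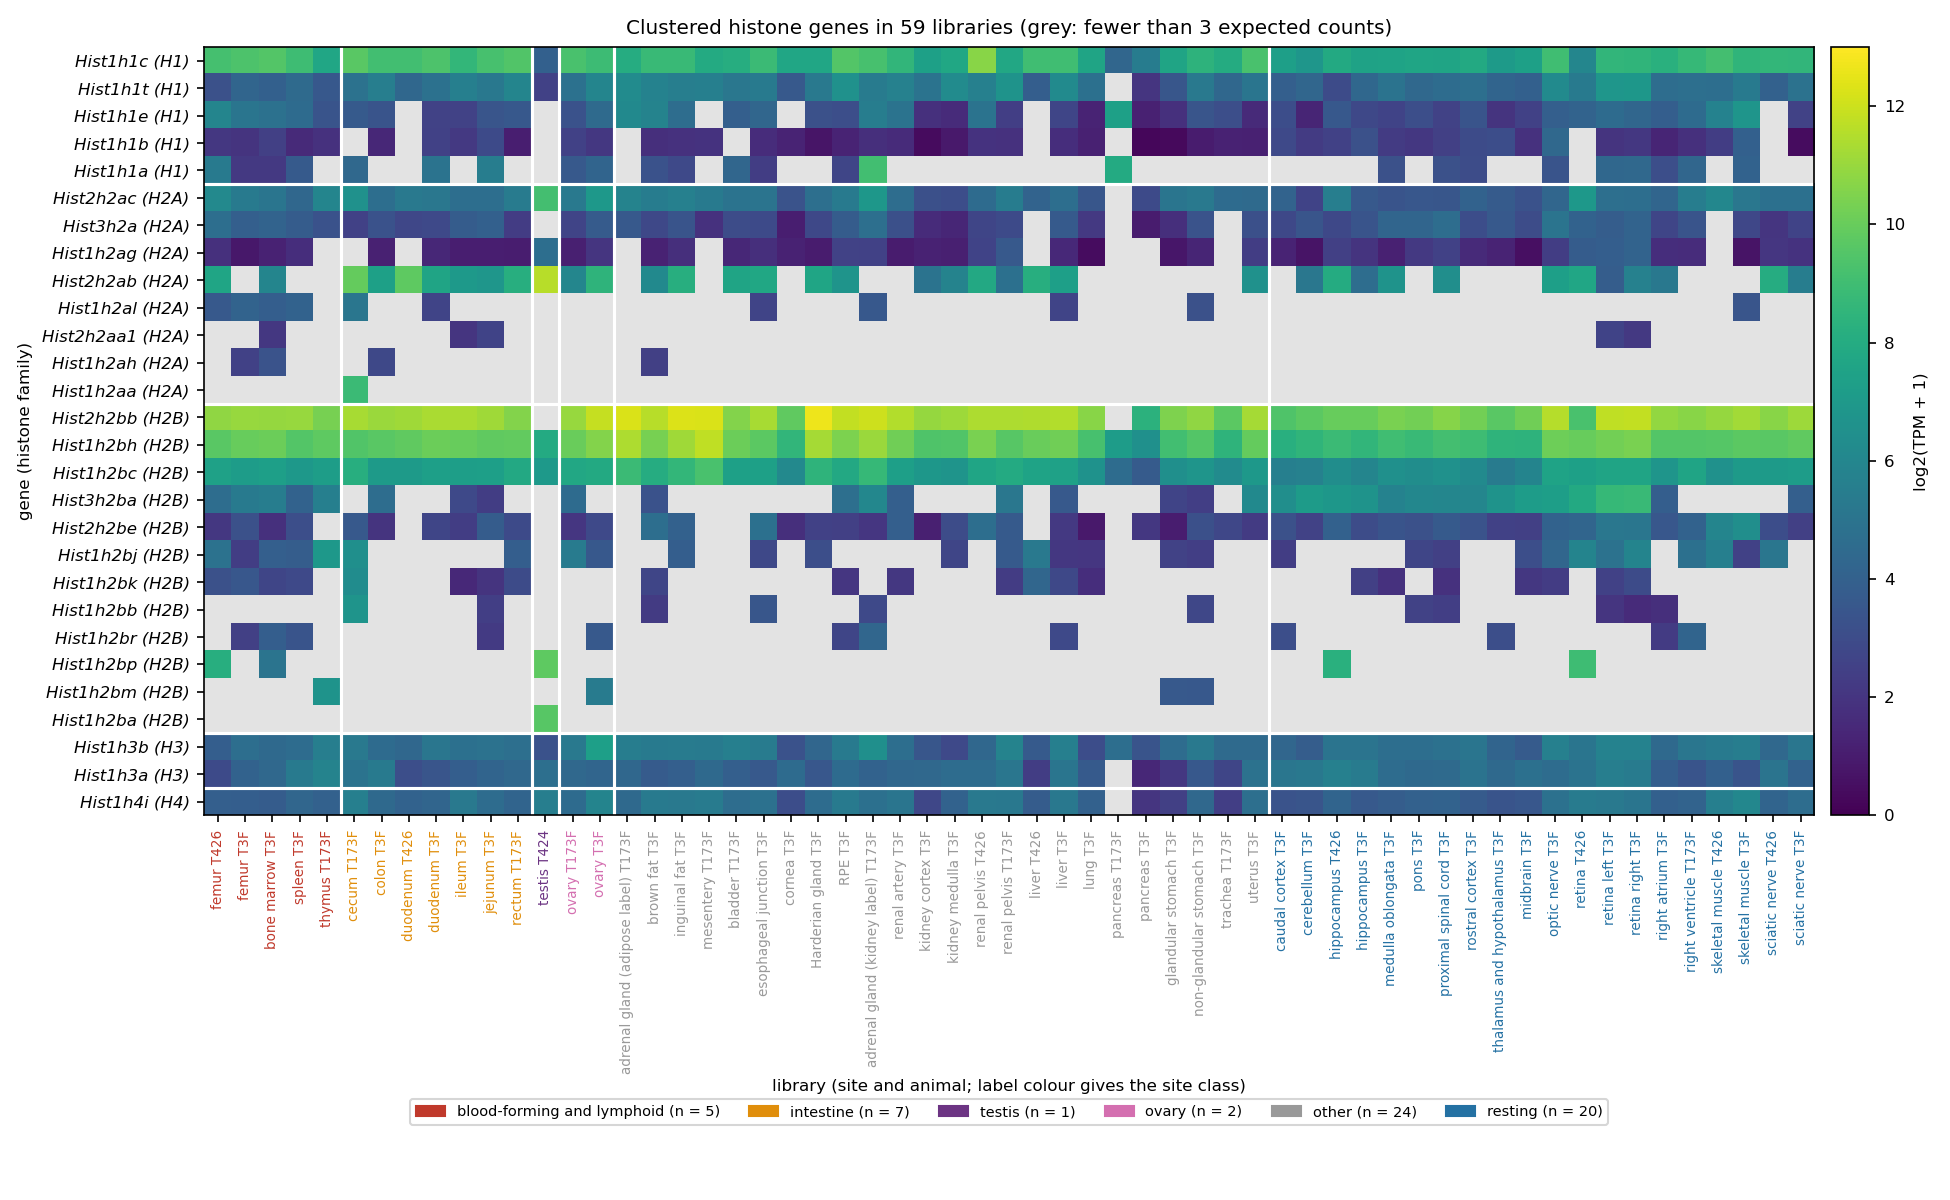
Level of each of the 28 clustered histone genes (rows, grouped by family) in each of the 59 libraries (columns, grouped by site class), as log2(TPM + 1); grey cells held fewer than 3 expected counts. Hist1h1c, Hist2h2bb, Hist1h2bh and Hist1h2bc were high nearly everywhere, while most other H2A and H2B genes were counted in few libraries.

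Counts and TPM ordered the genes differently. TPM divides a count by the effective length of the row, meant to set genes on one scale. Effective length is the stretch in which a fragment can start, and for a short row it can be far below the sequence length. Many histone rows had few counts per TPM. For 19 of the 28 genes, 1 TPM corresponded to less than 10% of the counts that it did for the median of the genes with at least 50 counts; 13.1% of all genes lay that low. Hist2h2bb and Hist1h2bh stood at 1.17% and 2.03% on that scale. These 2 genes made up a median of 75.9% of the summed histone TPM of a library but 23.6% of its summed histone counts. Sums are therefore given on both scales.

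**Figure D2:**
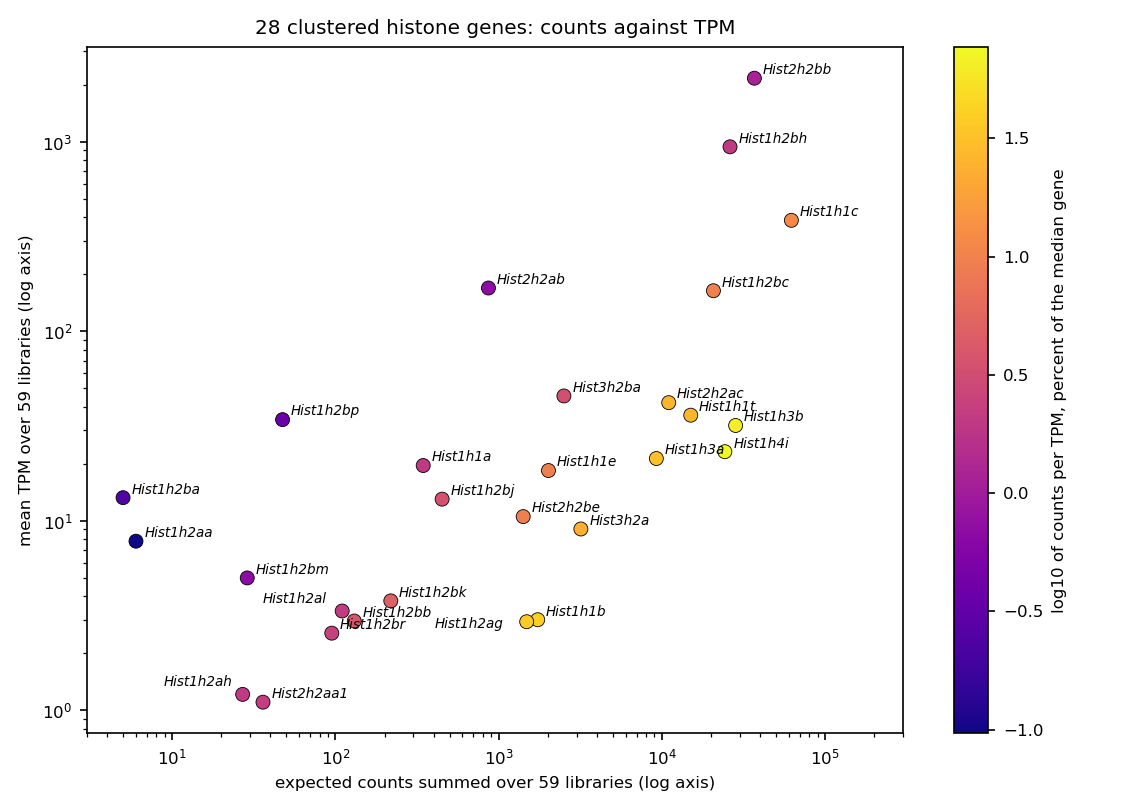
Expected counts summed over the 59 libraries (x, log axis) against mean TPM (y, log axis) for the 28 genes; colour gives the log10 of counts per TPM, in percent of the median gene. Hist1h2ba and Hist1h2aa reached means of 13.2 and 7.80 TPM on 5 and 6 counts, while Hist1h4i reached 23.1 TPM on 24320 counts.

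Among the linker histones, Hist1h1c, which encodes H1.2, was the most counted member of all, with 62141 counts. Its level was 203 to 724 TPM in the blood-forming and lymphoid libraries (median 579) and 393 to 808 TPM in intestine (median 588). It was 14.8 TPM in testis, 483 and 618 TPM in ovary, and 61.2 to 549.5 TPM in resting sites (median 239). The highest value, 1658 TPM, was in renal pelvis T426, one of the libraries that went against its label. The classes overlapped, but the medians of both dividing classes lay above the highest resting library, and testis was the lowest of the 48 sites. Thymus, at 203 TPM, was the lowest blood-forming and lymphoid library and lay below the resting median.

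Hist1h1t encodes H1t, known in the mouse as the linker histone of spermatocytes. Here it had 3 counts in testis (4.80 TPM, rank 47 of 48 sites) and was counted in 58 of the 59 libraries. Its level was 8.32 to 21.8 TPM in blood-forming and lymphoid libraries, 19.1 to 58.5 TPM in intestine and 6.92 to 117 TPM in resting sites, with both T3F retinas highest at 117 and 113 TPM. The row that carries this name therefore did not follow the mouse gene's known tissue.

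The other linker histones were sparser. Hist1h1e (H1.4) had 2020 counts, with 165 TPM in pancreas T173F, 53.4 and 108 TPM in skeletal muscle of T426 and T3F, and 59.5 and 31.8 TPM in femur of T426 and T3F. Hist1h1a (H1.1), with 345 counts, reached 530 TPM in the T173F adrenal gland with a kidney label and 245 TPM in pancreas T173F, and was listed at 0 in 22 libraries. Hist1h1b (H1.5), with 1736 counts, did not pass 20.1 TPM, reached in optic nerve. Its median was 2.92 TPM in blood-forming and lymphoid libraries and 3.81 TPM in resting sites.

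The H2A genes were led by Hist2h2ac, with 11017 counts. It stood at 550.4 TPM in testis, 19.2 to 67.9 TPM in blood-forming and lymphoid libraries, 24.6 to 93.1 TPM in intestine and 5.07 to 121 TPM in resting sites, where retina T426 was the highest. Hist2h2ab had a mean of 169 TPM on only 866 counts: 3141 TPM in testis, 112 to 984 TPM in intestine, 0 to 200 TPM in blood-forming and lymphoid libraries and 0 to 262 TPM in resting sites. Hist3h2a and Hist1h2ag, with 3191 and 1485 counts, were low and broad, with highest values of 31.3 TPM in optic nerve and 25.2 TPM in testis. Hist1h2al, Hist2h2aa1, Hist1h2ah and Hist1h2aa had 110, 36, 27 and 6 counts in all; those of Hist1h2aa, which encodes the testis H2A variant TH2A in the mouse, were all in cecum T173F.

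The H2B genes held the largest TPM values. Hist2h2bb averaged 2165 TPM over the 59 libraries, with 1279 to 2036 TPM in blood-forming and lymphoid libraries, 1538 to 2632 TPM in intestine, 68.7 TPM in testis and 624 to 3558 TPM in resting sites. Its highest levels were 6449 TPM in Harderian gland, an orbital gland that secretes lipid, 5027 TPM in inguinal fat and 4889 TPM in mesentery. Hist1h2bh averaged 940.3 TPM, with 722 to 1063 TPM in blood-forming and lymphoid libraries, 249 TPM in testis, 295 to 1344 TPM in resting sites and 3455 TPM in mesentery. The highest level of both genes was thus in fat or a lipid-secreting gland, outside the dividing classes.

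Hist1h2bc averaged 164 TPM and ran with them. It stood at 123 to 171 TPM in blood-forming and lymphoid libraries, 134 to 284 TPM in intestine, 129 TPM in testis and 41.5 to 195 TPM in resting sites, with 608 TPM in mesentery. Over the 48 sites, Spearman's rho was 0.88 between Hist2h2bb and Hist1h2bh, 0.89 between Hist1h2bh and Hist1h2bc, and 0.82 between Hist2h2bb and Hist1h2bc. These points share libraries and reads of near-identical genes. The ratio of Hist2h2bb to Hist1h2bh counts had a median of 1.44 over libraries and did not pass 2.11.

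Hist3h2ba and Hist2h2be were highest in other sites. Hist3h2ba was listed at 0 in 24 libraries and reached 235 TPM in the T426 retina and 441 and 425 TPM in the right and left T3F retinas; the next were optic nerve at 153 TPM, midbrain at 143 TPM and cerebellum at 140.4 TPM. Its median was 39.3 TPM in blood-forming and lymphoid libraries, 0 TPM in intestine and 74.8 TPM in resting sites. Hist2h2be was highest in skeletal muscle, at 59.1 TPM in T426 and 85.2 TPM in T3F, with a median of 3.31 TPM over blood-forming and lymphoid libraries. Both genes thus had their highest values in resting sites. Of the sparse H2B genes, Hist1h2bj and Hist1h2bm were highest in thymus, at 119 and 100.3 TPM on 450.5 and 28.8 counts in all, and Hist1h2bk and Hist1h2bb in cecum, on 218 and 130.5 counts. Hist1h2br had 95 counts.

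Of the H3 and H4 genes, Hist1h3b averaged 31.8 TPM, with 13.95 to 45.9 TPM in blood-forming and lymphoid libraries, 19.4 to 37.7 TPM in intestine, 8.58 TPM in testis and 12.4 to 53.9 TPM in resting sites. It was highest in ovary T3F at 161 TPM, against 37.1 TPM in ovary T173F, so that value belonged to 1 animal. Hist1h3a was highest in thymus, at 55.7 TPM, with medians of 19.6 TPM in blood-forming and lymphoid libraries and 24.9 TPM in resting sites. Hist1h4i was highest in skeletal muscle T3F at 64.4 TPM, with medians of 14.5 TPM in blood-forming and lymphoid libraries, 20.5 TPM in intestine and 16.2 TPM in resting sites, and 46.1 TPM in testis.

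The sum over the 28 genes overlapped between dividing and resting sites. On the CPM scale, which sets a count against its library total and not against length, the sum was 203 to 914 in blood-forming and lymphoid libraries (median 417), 261 to 460.2 in intestine (median 338), 892 in testis, 283 and 501 in ovary and 97.8 to 423 in resting sites (median 219). On the TPM scale the sum was 2972 to 4269 in blood-forming and lymphoid libraries (median 4084), 3910.3 to 6415 in intestine (median 4506), 5964 in testis, 4253 and 6881 in ovary and 1412 to 6413 in resting sites (median 2970.2). The ratio of the blood-forming to the resting median was 1.91 in CPM and 1.38 in TPM, and that of the intestinal to the resting median was 1.54 in CPM and 1.52 in TPM. Without the 8 libraries that went against their labels or were shallow, the ratios to the resting median were 2.19 for blood-forming and lymphoid libraries and 2.04 for intestine in CPM, and 1.41 and 1.65 in TPM. On the CPM scale the resting sums then ran from 97.8 to 339.5 (median 166), the intestinal sums were as given, and the blood-forming and lymphoid sums ran from 203 to 528 (median 363), so that the classes still overlapped.

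Thymus stood out. It had the highest Mki67, a marker of cycling cells, of all 59 libraries (1460.5 TPM) and the highest mean of 32 S phase and cell cycle genes (7.06 on the log2(TPM + 1) scale), yet its histone sum of 203 CPM ranked 43 of 59. Cornea, with an S phase mean of 4.57, had 116 CPM. The largest TPM sums were 9744 in Harderian gland and 9392 in mesentery, whose S phase means were 3.02 and 2.82. The smallest was 500.1 TPM in pancreas T3F.

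**Figure D3:**
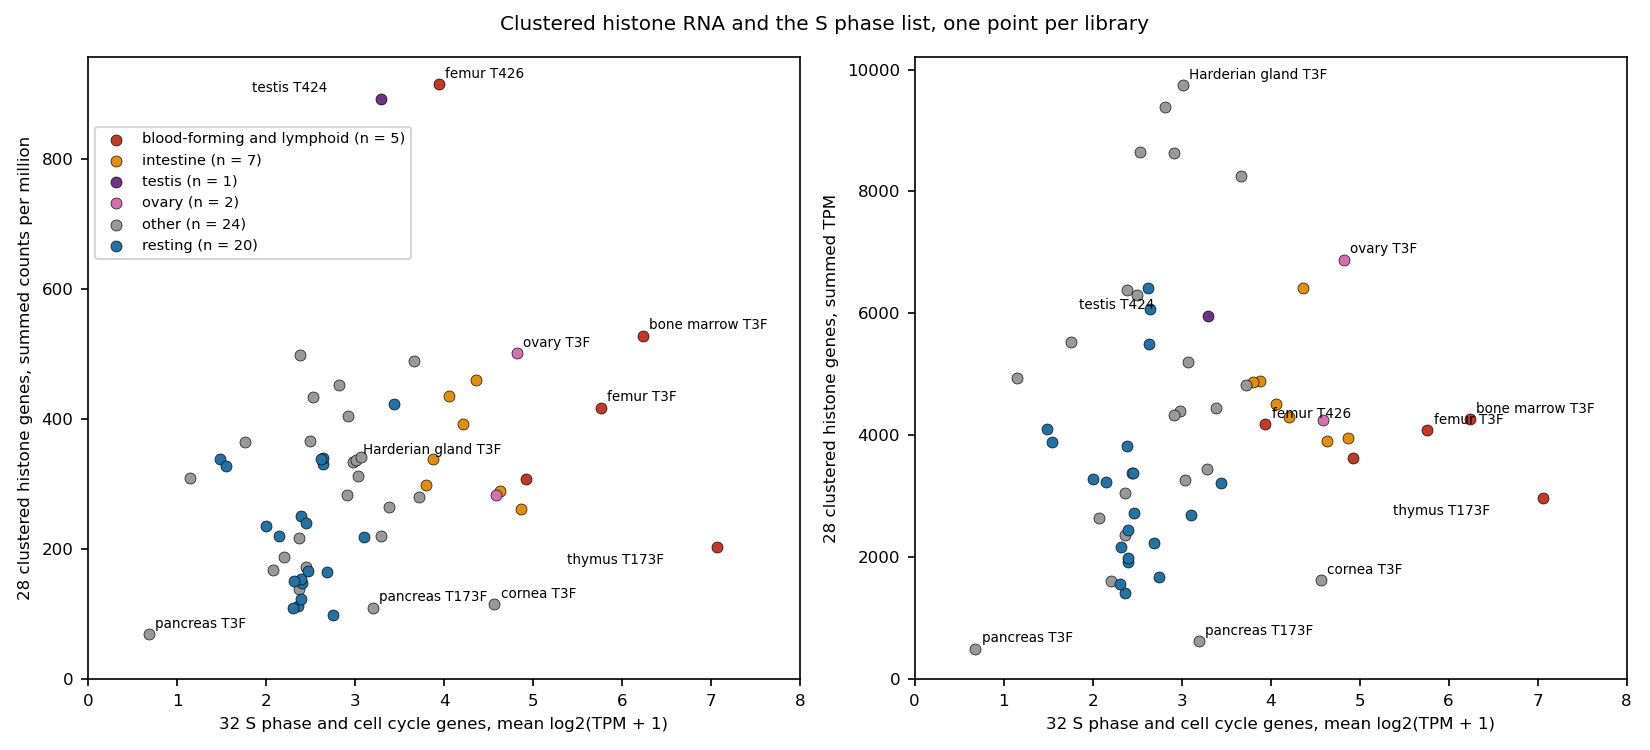
Sum of the 28 clustered histone genes in CPM (left) and TPM (right) against the mean log2(TPM + 1) of 32 S phase and cell cycle genes, 1 point per library, coloured by site class. Thymus lay at the far right with 203 CPM and 2972 TPM, below many libraries with a lower S phase mean.

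Over the 48 sites the S phase mean had a Spearman rho of 0.45 (Pearson r 0.34, and 0.38 without the 2 sites farthest from the median) with the log2 histone sum in CPM, and of 0.34 (r 0.20 and 0.27) with that in TPM. The 11 replacement histones outside the clusters, which package DNA throughout the cell cycle, had a rho of 0.79 (r 0.75 and 0.69). That list includes Cenpa and H2afx, which rose along with the S phase genes in femur, as given below. The variant H2afz by itself had a rho of 0.55 (r 0.66 and 0.56), and Slbp one of 0.70 (r 0.73 and 0.62). Among 12 members examined, Hist1h1c had 0.45 and Hist2h2ac 0.38, while Hist1h3b had 0.17, Hist1h1t 0.09 and Hist1h1b 0.01. These are descriptions over sites that share animals, depth and the germ cell signal of T426. Within the 37 sites of T3F, rho was 0.50 for the CPM sum, 0.83 for the replacement histones, 0.68 for Slbp, 0.65 for Hist1h1c, 0.42 for Hist3h2a, 0.41 for Hist1h2bh, 0.39 for Hist1h2bc, 0.33 for Hist2h2bb and 0.31 for Hist2h2ac. Over the 47 sites left without the 8 doubted or shallow libraries, rho was 0.45 for the CPM sum, 0.34 for the TPM sum, 0.78 for the replacement histones, 0.71 for Slbp, 0.46 for Hist1h1c and 0.36 for Hist2h2ac.

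Whether single members differ between sites was tested at the 10 sites with 2 animals. Of the 28 genes, 20 passed the filter on low counts; Hist1h2aa, Hist1h2ah, Hist1h2al, Hist2h2aa1, Hist1h2ba, Hist1h2bb, Hist1h2bm and Hist1h2br did not. Of the 20 tested, edgeR's quasi-likelihood F-test called 4, against a background of 41.4% of all genes tested. The 4 were Hist1h1e (adjusted p = 0.00852), Hist2h2be (adjusted p = 0.0180), Hist3h2ba (adjusted p = 0.0403) and Hist1h1a (adjusted p = 0.0482). In CPM scaled by TMM factors, which correct for composition, Hist2h2be had 10.8 and 23.1 in skeletal muscle of T426 and T3F, 6.43 in pancreas T3F and 0 to 3.13 elsewhere. The pancreas T3F value rests on a TMM factor of 0.141. Before scaling it was 0.91 CPM, below the 4.10 and 3.98 CPM of the left and right T3F retinas. Hist3h2ba had 10.9 and 13.7 in retina of T426 and T3F, and 0 in both duodenum and both skeletal muscle libraries. For Hist1h1e and Hist1h1a the highest value, 86.2 and 25.4, was that of pancreas T173F, against 2.57 and 0 in pancreas T3F. With the animal as a block Hist1h1a was no longer called, and the 3 others were, against 38.3% of all genes. The test called 9 members and 61.3% of all genes without liver T3F and pancreas T173F, 12 and 70.2% without pancreas T3F, 1 and 32.4% without skeletal muscle T3F, and 10 and 62.3% by DESeq2. The count was 2 without any one library of hippocampus, retina, duodenum, liver or sciatic nerve or without skeletal muscle T426, with 31.6% to 44.7% of all genes called. Also without the T426 libraries of femur, hippocampus, retina, sciatic nerve and renal pelvis, 3 members were called, Hist1h1c, Hist1h1e and Hist2h2be, against 48.7% of all genes.

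Femur, which holds dividing marrow cells, was compared with the mean of hippocampus, retina, skeletal muscle and sciatic nerve. Hist3h2a, Hist1h2bc, Hist1h1c and Hist1h1e rose in femur. They are 4 of the 20 members tested, against 9.01% of all genes; none fell, against 1.55% of all genes. The median log2 fold change of the 20 was 1.93, beside 0.10 over all genes, and 17 were above 0.

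Hist1h1c had TMM-scaled CPM of 379 and 133 in femur of T426 and T3F. In the resting sites it had 27.2 and 24.1 (hippocampus), 9.91 and 41.3 (retina), 123 and 119 (skeletal muscle) and 49.1 and 54.2 (sciatic nerve), T426 before T3F. Both femur libraries lay above all 8 resting libraries, though femur T3F only just passed skeletal muscle. The log2 fold change was 2.50 ± 0.71 (SE), with an edgeR adjusted p of 0.0349.

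Hist3h2a had 33.2 and 5.92 in femur of T426 and T3F on the same scale, against 1.41 and 2.55 in hippocampus, 5.32 and 3.35 in retina, 1.27 and 3.84 in skeletal muscle and 0.77 and 1.52 in sciatic nerve. On this scale the groups did not overlap, though femur T3F only just passed retina T426. Femur T426 stood far above femur T3F. In TPM the groups overlapped: femur T3F, at 14.5, lay below retina of T426 and T3F, at 15.9 and 14.9. The log2 fold change was 3.09 ± 0.84 (SE), with an edgeR adjusted p of 0.0299. Hist1h2bc had 92.0 and 24.3 in femur, against 7.64 and 6.48 in hippocampus, 22.0 and 17.7 in retina, 17.1 and 37.1 in skeletal muscle and 13.9 and 17.1 in sciatic nerve. Here femur T3F lay below skeletal muscle T3F, and the log2 fold change was 1.89 ± 0.53 (SE; edgeR adjusted p = 0.0336). Hist1h1e had 31.4 and 5.23 in femur, against 1.01 and 0.66 in hippocampus, 2.18 and 1.84 in retina, 9.52 and 29.1 in skeletal muscle and 0 and 0.58 in sciatic nerve. Both skeletal muscle libraries were above femur T3F, and the log2 fold change was 3.29 ± 0.98 (SE; edgeR adjusted p = 0.0450).

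**Figure D4:**
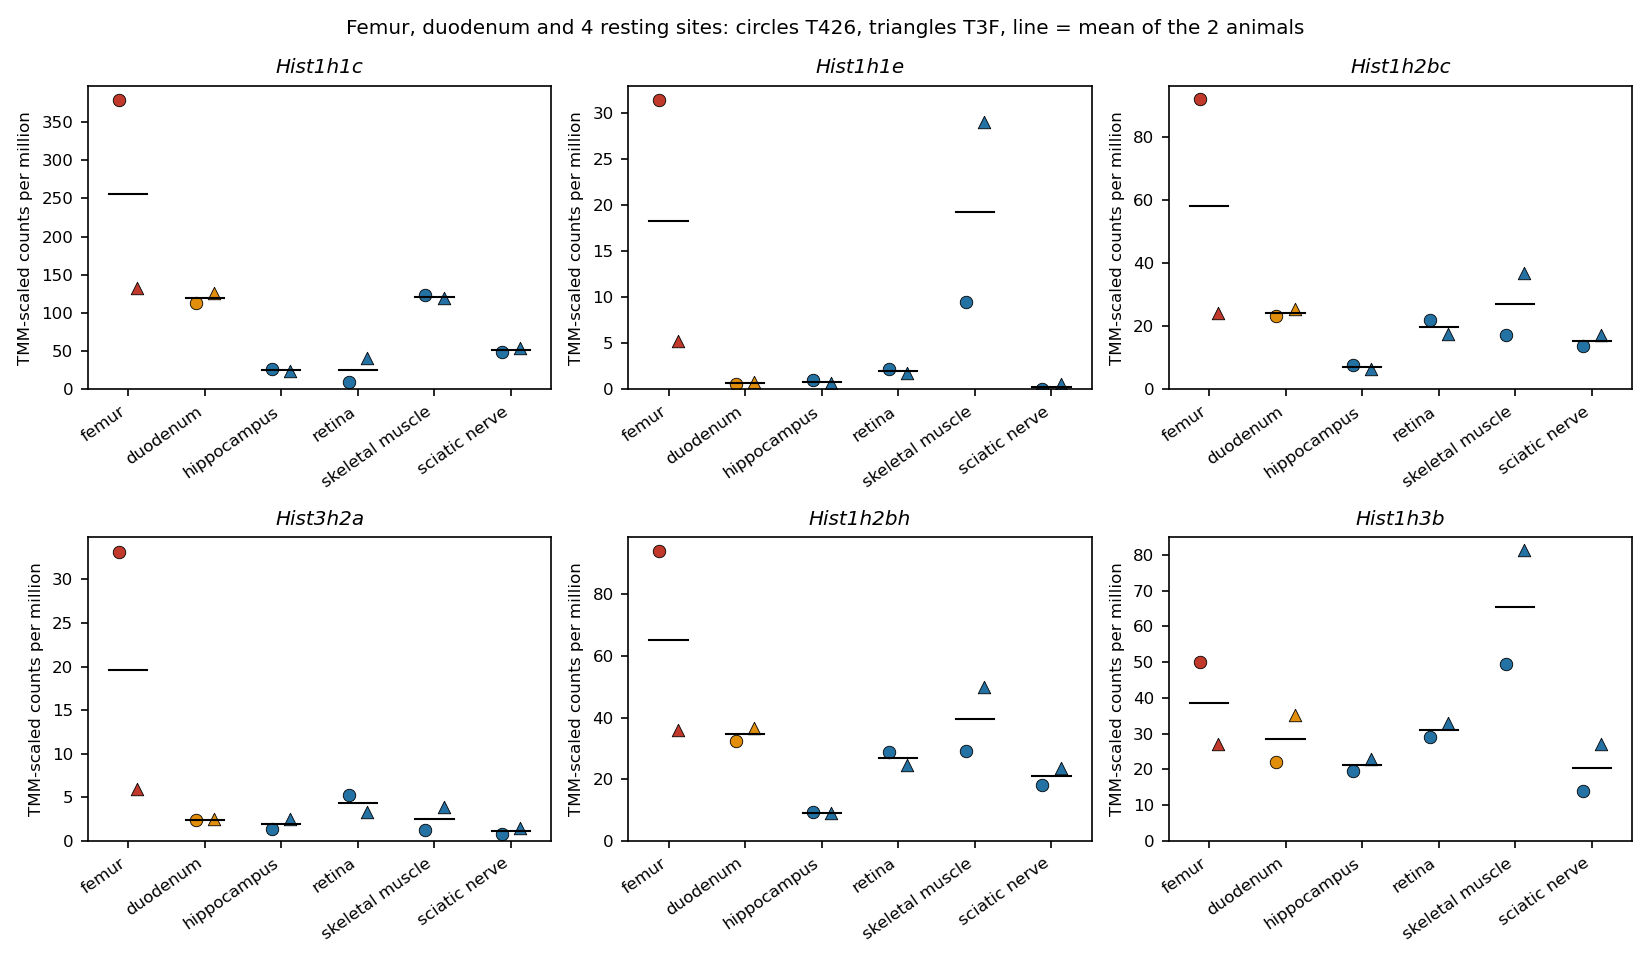
TMM-scaled CPM of 6 clustered histone genes in femur, duodenum and 4 resting sites; circles are T426, triangles T3F, and the line is the mean of the 2 animals. Femur T426 is the highest point for Hist1h1c, Hist1h1e, Hist1h2bc, Hist3h2a and Hist1h2bh, while Hist1h3b is highest in skeletal muscle T3F. In TPM, among these 5 genes femur T426 was highest only for Hist3h2a. Hist1h1c had 579 TPM in femur T426 against 666 in femur T3F, and Hist1h2bh 824 against 1279 in retina T3F. Hist1h1e had 59.5 TPM against 108 in skeletal muscle T3F, and Hist1h2bc 171 against 192 in retina T3F.

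The next members were Hist1h2bk at 4.32 ± 1.30 (edgeR adjusted p = 0.0509) and Hist1h2bh at 1.61 ± 0.51 (edgeR adjusted p = 0.0614) on the log2 scale. All 4 calls rested on femur T426, the library with 22486 TPM of germ cell genes: without it no member was called, and the log2 fold changes were 1.61 for Hist1h1c, 1.43 for Hist3h2a, 0.69 for Hist1h2bc and 1.56 for Hist1h1e. In that fit 5.01% of all genes were called in either direction, against 10.6% in the fit with all libraries. The count was also 0 without hippocampus T3F, and 1 without any one of hippocampus T426, retina T3F, skeletal muscle T426, sciatic nerve T3F or sciatic nerve T426, with 7% to 7.85% of all genes called. It was 2 without retina T426 (9.66% of all genes), 7 without liver T426 (12.5%), 9 without pancreas T173F (18.2%) and 9 without liver T3F and pancreas T173F together (23.7%). Without pancreas T3F it was 9 as well (18% of all genes). A further fit left out liver T3F, pancreas T173F and the 5 T426 libraries named above. This left 1 library at each of those sites, femur among them, and at liver and pancreas. Spread in that fit came only from duodenum, skeletal muscle and ovary. There Hist1h1c had a log2 fold change of 1.39. Limma on log2(TPM + 1) called 0 members and 17.6% of all genes, with Hist1h1c at 1.20 beside a median of -0.92 over all genes. With the animal as a block, Hist1h1c and Hist3h2a remained called, 2 of the 20 members, against 11.4% of all genes. Hist1h2bc then had an edgeR adjusted p of 0.0595 and Hist1h1e one of 0.0910.

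Other genes of histone supply and division were examined in the same contrast, in which 9.01% of all genes rose. Of the 32 S phase and cell cycle genes 28 rose (median log2 fold change 3.84), among them Rrm2, which makes deoxynucleotides, at 4.73 ± 0.48 (SE; edgeR adjusted p = 4.7e-05). Of the 11 replacement histones 6 rose, including the centromeric H3 variant Cenpa at 6.85 and H2afx, the H2A variant that is phosphorylated at DNA breaks, at 4.60. Of 8 histone chaperones 4 rose, with Asf1b at 5.46. Of 14 genes that transcribe or process histone mRNA, 2 rose. Their median log2 fold change was 0.24, beside 0.10 over all genes, so the list as a whole stood near all genes. The 2 were Slbp at 2.76 ± 0.51 (SE, edgeR adjusted p = 0.00322) and the S phase transcription factor E2f1 at 3.45. Cell type markers moved too: 5 of 6 erythroid precursor genes, 5 of 5 skeletal muscle fibre genes, 3 of 5 thymocyte genes and 4 of 6 intestinal crypt and enterocyte genes (median log2 fold change 4.41) rose in femur, and 0 of 11 germ cell genes. The enterocyte gene Fabp2 had 39.7 TPM in femur T426 and 0.156 TPM in femur T3F, and Vil1 had 7.31 and 2.50 TPM in femur of T426 and T3F. Over the fits that left out 1 library each, the number that rose was 21 to 32 for the S phase list, 2 to 8 for the replacement histones, 1 to 4 for the chaperones and 0 to 2 for the processing list. The part of these cells in the histone values was not tested.

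In duodenum, whose epithelium divides in the crypts, no clustered histone gene passed the test against the same 4 resting sites. By edgeR's quasi-likelihood test 0 of 20 rose and 0 fell, with 0 at an unadjusted p under 0.05, while 10.5% of all genes rose and 2.99% fell; DESeq2 also called 0, with 1 at an unadjusted p under 0.05. The median log2 fold change of the 20 was 0.06, beside -0.12 over all genes. The smallest adjusted p-values were 0.199 for Hist1h1a, at 3.42 ± 1.61, and 0.248 for Hist1h1c, at 1.41 ± 0.74 (edgeR, log2 scale, SE). Hist1h1c had TMM-scaled CPM of 113 and 126 in duodenum of T426 and T3F, close to the 123 and 119 of skeletal muscle. Of the S phase genes 9 of 32 rose, among them Mki67 at 5.18 ± 0.94 (SE; edgeR adjusted p = 0.00196), and of the replacement histones 2 of 11, Cenpa at 4.24 and H2afx at 2.55; Slbp stood at 1.33 with an edgeR adjusted p of 0.133. Without liver T3F, pancreas T173F and the same 5 T426 libraries, Hist1h1c was also higher in duodenum. That fit left 1 library each at hippocampus, retina and sciatic nerve, so only the direction is given here.

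Femur and duodenum were also compared directly. By edgeR 0 of 20 members rose and 0 fell, with 3 at an unadjusted p under 0.05, against 0.962% of all genes that rose and 0.609% that fell; DESeq2 called 2 members higher, Hist1h1e and Hist3h2a, against 14.1% of all genes in either direction. The median log2 fold change was 1.17, beside 0.12 over all genes. Hist1h1e had the smallest adjusted p, with TMM-scaled CPM of 31.4 and 5.23 in femur of T426 and T3F against 0.61 and 0.76 in duodenum (log2 fold change 4.67 ± 1.70, edgeR adjusted p = 0.174). Hist3h2ba had 4.42 and 2.27 in femur and was listed at 0 in both duodenum libraries (edgeR adjusted p = 0.193).

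Testis, the site where sperm precursors divide and then replace their histones, had a make-up of its own. In its 1 library, H2A genes took 69.7% of the histone counts, against at most 23.2% in any other library (retina T426), and H1 genes took 1.32%. There is no replicate of testis, so members were picked by size alone, as those of 1 TPM or more whose level was 4 or more times that of each other site's mean. By that rule 3 of the 28 members stood out, Hist2h2ac, Hist1h2bp and Hist1h2ba, against 1.66% of all genes, and the same 3 stood out without the 8 doubted or shallow libraries, against 4.39% of all genes.

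Hist2h2ac had 340 counts in testis, or 501 CPM (95% Wilson interval 450.4 to 557, counting error only). Its 550.4 TPM were 4.69 times the 117 TPM of the next site, the adrenal gland with a kidney label. Hist2h2ab had 56.8 counts, or 83.6 CPM (64.8 to 109) and 3141 TPM, 3.19 times the next site, cecum, and so missed the rule. In CPM, its 83.6 stood against 10.4 in cecum, and the same rule in CPM picked 4 members, these 3 and Hist2h2ab, against 3.55% of all genes. Hist1h2bp had 9 counts, or 13.3 CPM (6.98 to 25.2) and 879 TPM, 5.18 times the 170 TPM mean of the next site, retina. That mean took in 503 TPM in retina T426 and 0 and 6.83 TPM in the left and right T3F retinas. Hist1h2ba, the testis H2B variant TH2B in the mouse, had 5 counts, or 7.37 CPM (3.15 to 17.2). At the few counts per TPM of this row, that came to 780.5 TPM. The gene was listed at 0 in the other 58 libraries. With 3 counts worth 4.42 CPM in this library and 468 TPM for this row, its level rests on very few reads.

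The members that lead elsewhere were low in testis. Hist1h1c had 4 counts there, or 5.89 CPM (2.29 to 15.2), against a median of 65.2 CPM over the other sites. Hist2h2bb had 2 counts, or 2.95 CPM (0.81 to 10.7), against 38.9 CPM. Hist1h4i went the other way, at 124 CPM (99.96 to 153) against 25.03 CPM. The mean of the 32 S phase and cell cycle genes was 3.29 on the log2(TPM + 1) scale in testis, against medians of 5.76 in blood-forming and lymphoid libraries, 4.21 in intestine and 2.40 in resting sites. Within that list testis had 428 TPM of Cdc20 and 54.8 TPM of Plk1, which act in mitosis, but 4.73 TPM of Mki67; Slbp was at 18.01 TPM.

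Hist2h2ac and Hist1h2bp were also counted in T426 libraries that held germ cell genes, and Hist1h2ba was at 0 in all of them. Hist2h2ac had 73.8 CPM in retina T426 against 8.34 CPM in retina T3F, 88.6 CPM in femur T426 against 21.9 CPM in femur T3F, and 19.7 CPM in hippocampus T426 against 4.09 CPM in hippocampus T3F. At the other sites of both animals it had 11.7 and 10.7 CPM in sciatic nerve of T426 and T3F, 25.03 and 13.7 CPM in skeletal muscle, 16.9 and 15.1 CPM in duodenum, and 8.23 and 9.56 CPM in liver, so sciatic nerve T426 did not stand apart. Hist1h2bp had 4.45, 5.13 and 1.78 CPM in retina, femur and hippocampus of T426, against 0.02, 0.05 and 0 CPM in those of T3F, and 0 in the other 4 T426 sites that T3F shares. In retina T426 all 11 germ cell genes were counted, as in testis, and in femur T426 10 of 11 with Dazl at 0. The part of germ cell RNA in these values was not tested.

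**Figure D5:**
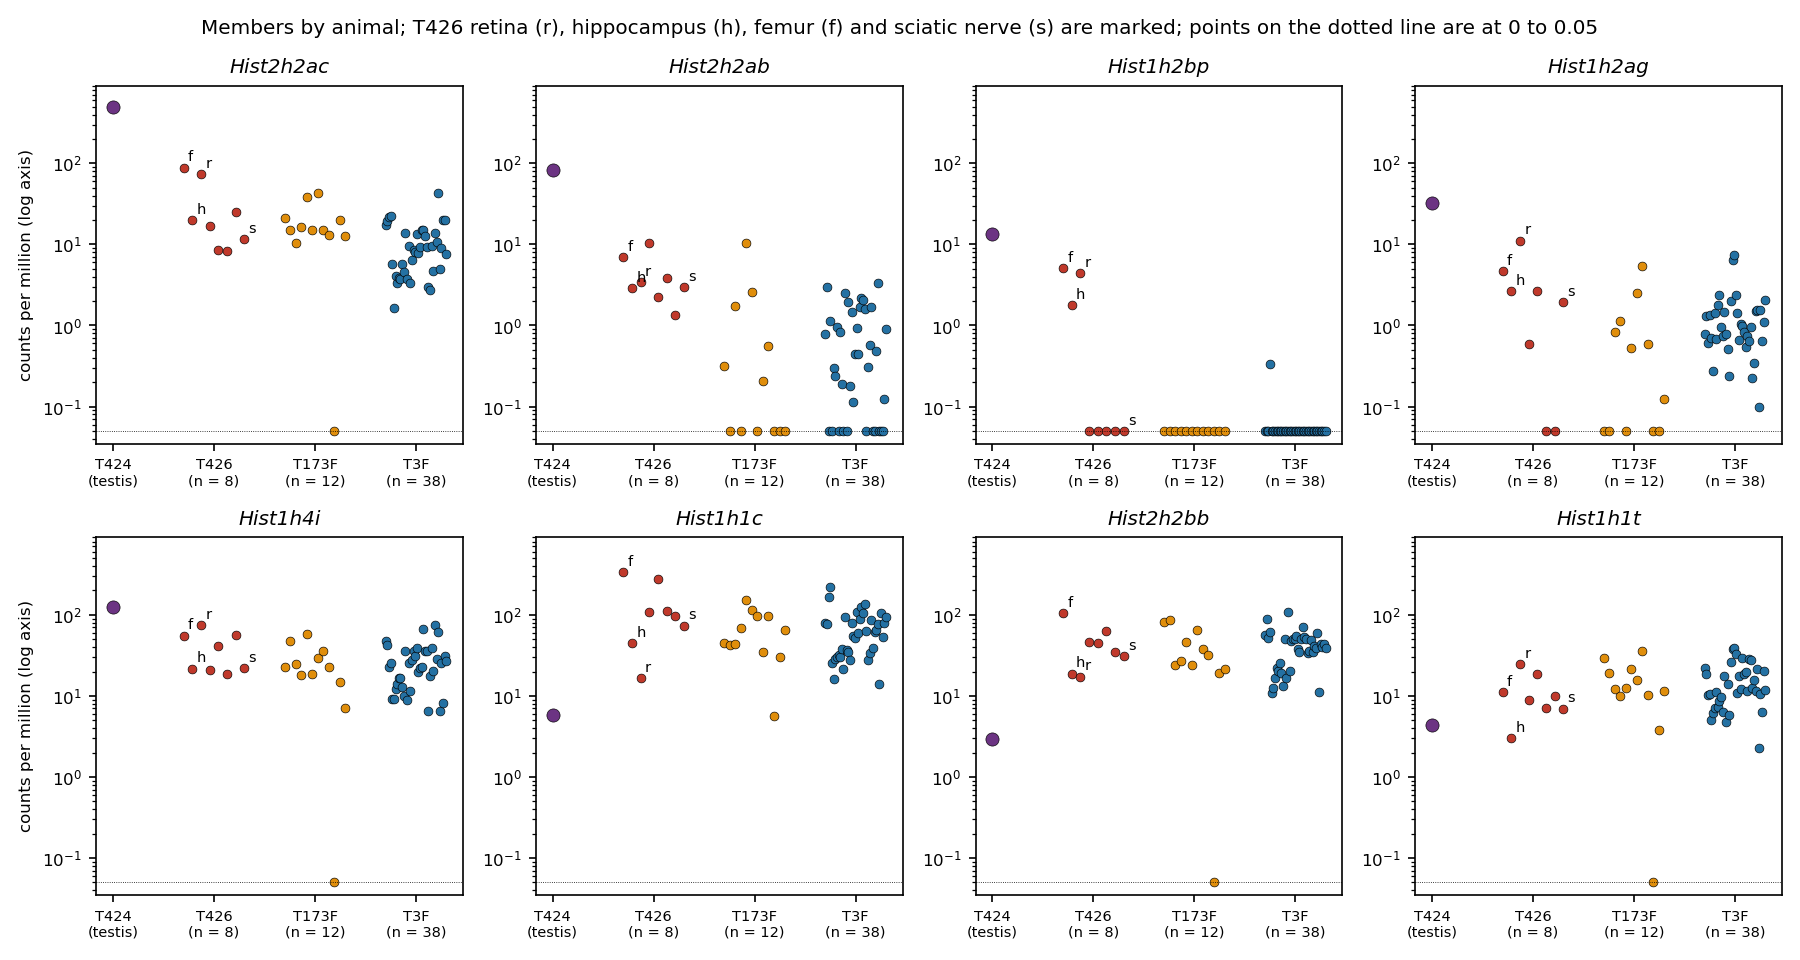
CPM (log axis) of 8 clustered histone genes in the testis library of T424 and in the libraries of T426, T173F and T3F, 1 point per library; T426 retina, hippocampus, femur and sciatic nerve are marked r, h, f and s. Testis is the highest point for Hist2h2ac (501), Hist2h2ab (83.6), Hist1h2bp (13.3), Hist1h2ag (32.4) and Hist1h4i (124), and near the bottom for Hist1h1c (5.89) and Hist2h2bb (2.95).

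Over the 7 sites that both animals supplied, T426 was compared with T3F, with the site as a block. By edgeR 0 of 19 members were higher and 0 lower, with 5 at an unadjusted p under 0.05, against 0.675% of all genes higher and 0.0764% lower; DESeq2 called 3 higher, Hist1h2bj, Hist2h2ab and Hist2h2ac, against 4.63% of all genes in either direction. The median log2 fold change of the members was 0.19, beside -0.18 over all genes. Hist1h2bp stood at 6.39 ± 1.05 (edgeR adjusted p = 0.0725) and Hist2h2ab at 3.46 ± 0.87 (edgeR adjusted p = 0.0953). Hist1h2bj stood at 3.27 ± 1.05 (edgeR adjusted p = 0.148) and Hist2h2ac at 1.23 ± 0.43 (edgeR adjusted p = 0.163). Among the members with a negative log2 fold change, Hist1h1t had the smallest p, at -0.77 ± 0.32 (edgeR adjusted p = 0.214). Hist1h1b had a more negative log2 fold change, with an edgeR adjusted p of 0.414.

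Hist2h2ab shows the spread by site. Its CPM in T426 and T3F were 6.92 and 0 in femur, 2.88 and 0.24 in hippocampus, 3.43 and 0.28 in retina, 10.3 and 2.19 in duodenum, 3.82 and 1.67 in liver, 1.35 and 0 in skeletal muscle and 2.97 and 0.49 in sciatic nerve. It was higher in T426 at all 7 sites, including duodenum and skeletal muscle. The T426 libraries of those 2 sites held 37.8 and 59.7 TPM of the 11 germ cell genes. The T426 values of Hist2h2ab rest on few reads, from 2.71 expected counts in skeletal muscle to 17.7 in femur. Of the germ cell list itself 6 of 11 genes were higher in T426 (median log2 fold change 9.69), and 0 of 32 S phase genes differed by edgeR. Of the germline histones outside the clusters, H1fnt, a linker histone of spermatids in the mouse, was higher in T426 (1 of 3 tested, edgeR adjusted p = 0.0350), with 4019.5 TPM in retina T426 and 7669 TPM in testis. Animal, library batch and depth cannot be told apart here.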

How the data were processed

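Poly(A)-selected RNA was sequenced as paired-end TruSeq libraries on a HiSeq 3000, per the labels and the series' design text. The authors deposited expected counts and TPM per gene, made with RSEM and Bowtie 0.12.8 per the submitters' processing notes; the build of the reference is not given in the sources used here. The symbols and gene lists, like the members, were chosen with earlier results of these data known. Deposited expected counts were rounded for tests; both retinas of T3F were summed (averaged for TPM). Tests used edgeR 4.0.16 (R 4.3.3) quasi-likelihood fits with TMM scaling and filterByExpr, site as the factor, and Benjamini-Hochberg adjustment over all 17564 genes tested (17025 for T426 against T3F). A call needed an adjusted p under 0.05 and a log2 fold change of at least 1 in size; the F-test needed the adjusted p alone. Alternatives were RLE scaling, no filter, DESeq2 1.42.0, limma 3.58.1 on log2(TPM + 1) or log2(TPM + 0.1), the animal as a block, and each library left out. Sums and the testis rule in CPM, without 8 doubted libraries or at 10 counts or more, were added after seeing the data. The replicates of a site were 2 animals, and p-values measure the spread between these libraries. The animal names in the labels pair the libraries: the T426 minus T3F differences correlated between sites at 0.018 to 0.816 over 21 pairs of sites. Any clustered gene could be named; full values went to the 10 with the highest mean TPM, the smallest adjusted p-values of each contrast, the testis members and Hist1h1t, Hist1h2aa and Hist1h2ba. Scripts were tested on simulated data. None of the 28 symbols matched the RefSeq table, so no sequence is printed. Of 8 listed RNAs without a poly(A) tail, 0 were in the table.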

Additional observations from a re-analysis of the deposited data

Results flagged for a closer look

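In groups of this size chance sets about 1 in 20 apart; 22 groups were examined and 4 values stood far from the rest of their class. The summed level of the 28 genes was 6415 TPM in cecum T173F, on 3736 counts, against 3910.3 to 4889 TPM in the other 6 intestinal libraries. Hist2h2ac was at 93.1 TPM in the same cecum library, on 316 counts, against 24.6 to 41.2 TPM. Hist3h2ba was at 24.3 TPM in colon T3F, on 20.5 counts, against 0 to 6.41 TPM in the other intestinal libraries. Hist1h2bp was at 283 TPM in femur T426, on 13.1 counts, against 0 to 31.4 TPM in the other 4 blood-forming and lymphoid libraries.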

How the results depend on the processing

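The 4 members called in femur against resting sites kept their direction in every alternative run. The other contrasts had no call as reported, and the directions of members not called were not compared. The count of members higher in femur than in resting sites, 4 as reported, was 6 with RLE scaling, 5 without a filter, 5 by DESeq2, 0 by limma on log2(TPM + 1) and 0 on log2(TPM + 0.1), 2 with the animal as a replicate block, 9 without liver T3F and pancreas T173F, 1 also without 5 T426 libraries, and 0 to 9 with 1 library left out. The site F-test called 4 as reported, 6 with RLE scaling, 10 by DESeq2, 14 and 15 by limma with the larger and smaller pseudocount, 9 without liver T3F and pancreas T173F, 3 with the replicate block and 1 to 12 with 1 library left out. In duodenum against resting sites (0 calls) there was 1 by limma on log2(TPM + 1), Hist3h2ba lower, against 17.8% of all genes. In fits that left 1 library at some sites, Hist1h3a was lower without liver T3F and pancreas T173F. Hist1h1c was higher also without 5 T426 libraries. Femur against duodenum had 2 by DESeq2, against 14.1% of all genes. T426 against T3F had 3 by DESeq2 and 1 without the liver pair, Hist1h2bp, with a range of 0 to 1 with 1 site left out; without the site as a replicate block it had 0. The testis rule gave 3 members (1.66% of all genes), 4 in CPM (3.55%), 5 at 2 times (4.06%), 1 at 10 counts or more (1.51%) and 3 without the 8 doubted or shallow libraries (4.39%). The share of all genes called in the femur contrast was 10.6% as reported, 11.3% with RLE scaling, 9.96% unfiltered and 19.1% by DESeq2. It was 17.6% and 8.19% by limma with the larger and smaller pseudocount, and 11.4% with the animal as a block. In the site F-test it was 41.4% as reported, 45.2% with RLE scaling, 62.3% by DESeq2 and 38.3% with the animal block. By limma the F-test called 71.5% and 71% of all genes. The median of all genes in femur against resting sites was 0.10 on the log2 scale with TMM, 0.12 with RLE and -0.92 in limma on log2(TPM + 1), where Hist1h1c stood at 1.20. The cause of these differences was not tested. With 2 animals a site and shallow T426 libraries, small changes in members of few counts could not be seen.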
